A study of Mus musculus with 84 samples.

Results

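The sites described here are stretches of open chromatin listed at day 5 of reprogramming in control cells and at neither day 1 nor day 7. They were chosen by the measured peak positions: they are the peaks of the shLuc day 5 ATAC-seq list that shared no base with a peak of the shLuc day 1 or day 7 list. There were 10606 such sites among 59861 shLuc day 5 peaks (17.7%). Of these, 8642 were also missing from the day 3 list and 1964 overlapped a day 3 peak. They are called transient sites below, a name for the rule and not for a measured time course.

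ATAC-seq uses a transposase that cuts DNA where nucleosomes leave it exposed, so a peak marks an accessible stretch such as a promoter or an enhancer. When fibroblasts are driven towards pluripotency by Oct4, Klf4 and Sox2, the somatic enhancers close and the enhancers of pluripotency genes open, and some sites open for a time and close again. YTHDF2 and YTHDF3 are proteins that bind N6-methyladenosine in RNA, and TEAD2 is a transcription factor through which the coactivator YAP reaches DNA.

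The cells were mouse embryonic fibroblasts (MEFs) infected with pMXs retroviruses for Oct4, Klf4 and Sox2 and with a pSuper-puro retrovirus for 1 hairpin, selected with puromycin and kept in iCD1 medium. Day 0 was the day the virus was removed. The arms were a hairpin against Ythdf2 (shYthdf2), one against Ythdf3 (shYthdf3) and one against luciferase (shLuc, the control), each at days 1, 3, 5 and 7. Each arm and day had 1 ATAC-seq peak list, giving 12 lists of 43725 to 78260 peaks, and 2 RNA libraries. TEAD2 binding was given as 1 list of 7805 peaks at day 1, for which the labels name no hairpin, and embryonic stem (ES) cells and MEFs carrying shLuc had 2 RNA libraries each. With 1 ATAC-seq library per arm and day, no difference between peak lists has a replicate check, and the lists hold no height or read number, so depth is unknown and a site missing from a list may lie just under the caller's threshold. All 3 exogenous factors and a hairpin were present in every arm, and the cultures hold every cell that survived selection, so fewer cells with an open site and less opening per cell cannot be told apart.

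At day 5 the transcript targeted by each hairpin was lower in both libraries of its arm, and neither difference passed the test. Ythdf2 stood at 18.4 and 8.41 TPM in the shYthdf2 day 5 libraries, against 61.9 and 36.8 TPM in shLuc (adjusted p = 0.27, limma). Ythdf3 stood at 13.2 and 11.5 TPM in the shYthdf3 day 5 libraries, against 39.8 and 19.0 TPM in shLuc (adjusted p = 0.49, limma). TPM is a relative transcript level, corrected for length and scaled to the same total in each library. In both cases the libraries of the groups did not overlap. Each of the 2 genes also had 1 transient site within 50 kb.

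The promoters of 8 genes that lay under a transient site are shown first, because the RNA results below turn on them. They were chosen after their values were seen. Each line is the RefSeq promoter window of GRCm38.p6 (mm10), 250 bases before to 50 bases after the gene start, written 5′ to 3′ on the gene's strand, and capitals mark the bases under the day 5 peak. The first 4 belong to genes inducible by interferon, the antiviral cytokine: Gbp3, a guanylate-binding protein (window chr3:142559794-142560093, plus strand; site chr3:142559735-142560111), Tgtp1, a GTPase of the same response (chr11:48992197-48992496, minus; site chr11:48992226-48992575), its near copy Tgtp2 (chr11:49064163-49064462, minus; site chr11:49064170-49064385) and Psmb10, a subunit of the immunoproteasome (chr8:105938343-105938642, minus; site chr8:105938143-105938489).
Gbp3: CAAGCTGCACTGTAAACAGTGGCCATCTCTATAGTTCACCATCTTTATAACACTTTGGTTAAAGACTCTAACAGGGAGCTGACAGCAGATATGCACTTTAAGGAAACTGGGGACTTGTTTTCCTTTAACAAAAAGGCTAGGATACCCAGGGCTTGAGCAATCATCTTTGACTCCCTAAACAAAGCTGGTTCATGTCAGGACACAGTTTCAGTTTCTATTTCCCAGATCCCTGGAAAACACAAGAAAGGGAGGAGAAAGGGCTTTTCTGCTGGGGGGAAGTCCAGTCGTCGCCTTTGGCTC
Tgtp1: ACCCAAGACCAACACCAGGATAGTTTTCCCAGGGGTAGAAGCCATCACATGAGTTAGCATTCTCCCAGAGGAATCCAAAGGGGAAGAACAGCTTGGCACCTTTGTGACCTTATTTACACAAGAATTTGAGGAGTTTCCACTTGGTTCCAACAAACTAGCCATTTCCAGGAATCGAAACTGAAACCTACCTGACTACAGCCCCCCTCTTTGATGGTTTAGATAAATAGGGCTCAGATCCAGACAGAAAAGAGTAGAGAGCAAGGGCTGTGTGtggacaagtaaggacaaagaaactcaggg
Tgtp2: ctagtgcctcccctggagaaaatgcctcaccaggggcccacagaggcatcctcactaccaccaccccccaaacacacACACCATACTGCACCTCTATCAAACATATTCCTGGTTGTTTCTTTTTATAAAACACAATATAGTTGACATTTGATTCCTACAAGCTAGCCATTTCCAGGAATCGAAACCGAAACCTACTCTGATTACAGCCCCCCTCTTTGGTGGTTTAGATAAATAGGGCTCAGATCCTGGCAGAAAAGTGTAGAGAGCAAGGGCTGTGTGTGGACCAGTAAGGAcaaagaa
Psmb10: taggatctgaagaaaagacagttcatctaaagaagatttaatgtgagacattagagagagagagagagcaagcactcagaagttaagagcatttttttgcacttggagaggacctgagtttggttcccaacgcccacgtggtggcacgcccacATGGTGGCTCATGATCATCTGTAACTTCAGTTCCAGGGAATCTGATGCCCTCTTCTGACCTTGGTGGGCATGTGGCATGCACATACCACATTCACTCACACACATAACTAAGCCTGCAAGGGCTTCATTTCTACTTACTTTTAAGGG
The other 4 belong to Srgn, which encodes the proteoglycan serglycin (window chr10:62507708-62508007, minus strand; site chr10:62507739-62508138), Spint1, an epithelial inhibitor of serine proteases (chr2:119237110-119237409, plus; site chr2:119237234-119237407), Nr5a2, a nuclear receptor of the pluripotency network (chr1:136953581-136953880, minus; site chr1:136953721-136953860), and Trh, the precursor of thyrotropin-releasing hormone (chr6:92244601-92244900, minus; site chr6:92244655-92244858).
Srgn: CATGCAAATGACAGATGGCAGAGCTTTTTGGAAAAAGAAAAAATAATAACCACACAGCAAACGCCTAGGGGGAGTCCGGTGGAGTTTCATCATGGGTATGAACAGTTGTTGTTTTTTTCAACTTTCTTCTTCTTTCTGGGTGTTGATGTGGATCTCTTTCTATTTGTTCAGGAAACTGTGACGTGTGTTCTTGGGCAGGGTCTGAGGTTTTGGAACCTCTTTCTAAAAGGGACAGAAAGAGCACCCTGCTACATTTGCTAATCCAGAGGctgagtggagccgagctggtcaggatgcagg
Spint1: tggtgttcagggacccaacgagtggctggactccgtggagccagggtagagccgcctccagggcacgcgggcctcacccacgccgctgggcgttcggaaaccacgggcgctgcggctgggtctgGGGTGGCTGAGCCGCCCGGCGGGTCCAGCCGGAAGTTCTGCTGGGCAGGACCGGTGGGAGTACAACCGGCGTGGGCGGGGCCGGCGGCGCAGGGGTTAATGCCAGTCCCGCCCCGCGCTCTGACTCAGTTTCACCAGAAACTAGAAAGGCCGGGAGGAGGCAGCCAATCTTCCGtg
Nr5a2: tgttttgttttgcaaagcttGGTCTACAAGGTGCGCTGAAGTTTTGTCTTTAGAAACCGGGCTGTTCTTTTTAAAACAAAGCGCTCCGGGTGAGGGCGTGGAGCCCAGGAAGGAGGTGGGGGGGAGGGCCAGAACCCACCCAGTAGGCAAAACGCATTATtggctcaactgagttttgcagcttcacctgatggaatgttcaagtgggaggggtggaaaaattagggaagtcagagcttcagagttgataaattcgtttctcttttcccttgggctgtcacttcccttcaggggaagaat
Trh: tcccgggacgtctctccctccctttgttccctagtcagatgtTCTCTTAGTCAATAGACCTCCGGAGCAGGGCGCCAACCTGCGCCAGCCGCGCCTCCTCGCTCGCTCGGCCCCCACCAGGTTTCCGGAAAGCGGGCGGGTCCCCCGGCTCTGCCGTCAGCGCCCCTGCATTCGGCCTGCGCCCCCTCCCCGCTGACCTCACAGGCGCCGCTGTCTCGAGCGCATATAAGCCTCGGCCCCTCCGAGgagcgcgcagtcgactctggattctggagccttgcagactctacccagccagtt
Of 16 motifs searched on both strands, the covered bases held the letters GAAANTGAA, a core of the motif of interferon regulatory factors (IRF), in Gbp3 and Tgtp1. Gbp3 also held TTGCNNAA (C/EBP) and GCCNNNGGC (TFAP2), and Tgtp1 also held CCTTTGT (SOX). Srgn held ATGCAAAT, the octamer bound by Oct4, and AACCACA (RUNX). Spint1 held TGANTCA (AP-1), CCGGAAG (ETS), GCCNNNGGC and GCCAAT (NFY), and Nr5a2 held GGGNGTG (KLF). The covered bases of Tgtp2, Psmb10 and Trh held none of the 16. The covered bases of Spint1 lie in a window of 69.7% GC with 28 CpG dinucleotides, whereas the Gbp3, Tgtp1, Tgtp2 and Psmb10 windows had 45.3 to 46.7% GC and 1 to 3 CpG.

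Transient sites were narrow and mostly far from promoters. Their median width was 166 bp (quartiles 136 and 216 bp), against 276 bp (185 and 429 bp) for the other 49255 day 5 sites. The other sites fall in 3 classes by the same lists: 10490 present at days 5 and 7 but not day 1 (median width 206 bp), 8531 present at days 1 and 5 but not day 7 (192 bp), and 30234 present on all 3 days (356 bp). The narrowest peak was 118 bp in every class. The transient sites had a lower median width than any of the 3. Widths and distances to genes were drawn by class.

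**Figure D1:**
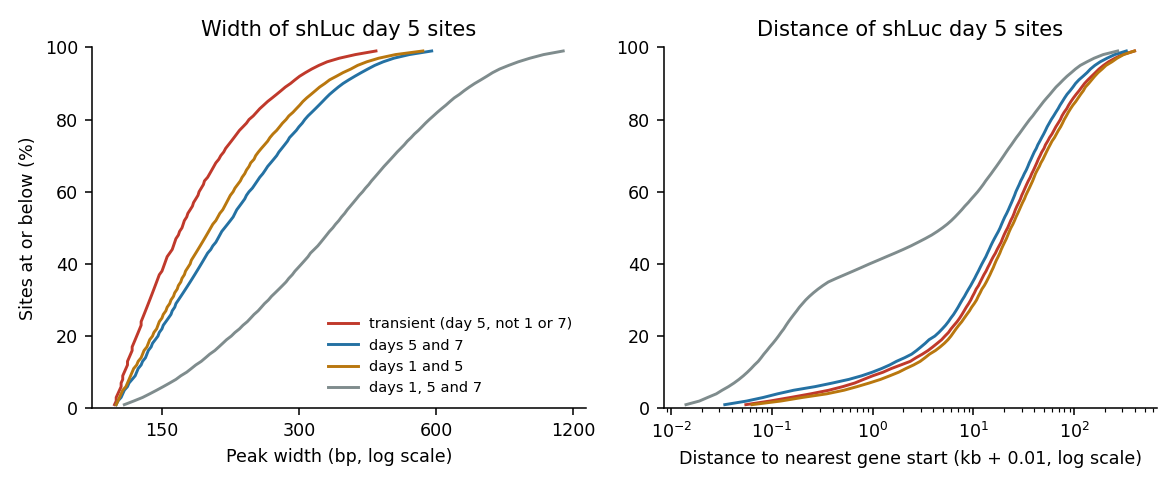
Cumulative share of shLuc day 5 sites (percent, y axis) by peak width in bp (left, log scale) and by distance from the site's midpoint to the nearest gene start in kb (right, log scale, 0.01 kb added), for transient sites and the 3 other classes. The transient curve lies to the left of the others in width (median 166 bp) and close to the curves of sites of days 5 and 7 and of days 1 and 5 in distance.

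A promoter window lay under 351 transient sites, 3.31% (exact 95% binomial interval 2.98 to 3.67), against 10141, or 20.6% (20.2 to 20.9), of the other day 5 sites. Intervals of shares here cover counting error only. The share was 5.48% at sites of days 5 and 7, 3.25% at sites of days 1 and 5 and 30.7% at sites of all 3 days. The median distance to the nearest gene start was 21834 bp for transient sites and 10923 bp for the others. The transient sites lay within a gene in 57.4% of cases (56.5 to 58.4), against 66.4% (66.0 to 66.9). The promoter difference from the pooled others was present within these width classes too: among peaks under 150 bp, 2.19% of transient and 4.12% of other sites met a promoter window, and among those of 400 bp or more 9.05% and 49.1% did. By class, the shares under 150 bp were 4.02% at sites of days 5 and 7, 2.08% at sites of days 1 and 5 and 6.76% at sites of all 3 days. At 400 bp or more they were 9.69%, 9.13% and 53.0%, so only sites of all 3 days stood far from transient sites there.

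The sites were spread over the genome. Their share of a chromosome's day 5 peaks was between 15.2% on chromosome 11 and 20.4% on chromosome X among the chromosomes with more than 2 peaks. The median distance from one transient site to the next was 57.9 kb, and 12.9% had another within 10 kb. The nearest day 1 or day 7 peak was at a median of 8032.5 bp from a transient site. At the edge of the rule, 20 sites lay 10 bp or less from such a peak and 1503 within 1 kb, while 70 day 5 peaks fell outside the rule by an overlap of 1 to 10 bp. MicroRNA hairpins of RefSeq lay under 5 sites, among them Mir137 (site chr3:118433730-118433970), a microRNA best known from neurons.

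The 5 widest day 5 only sites with a named near gene were 527 to 619 bp. The widest of these, 619 bp at chr1:136613273-136613891, lay outside any gene, 11319 bp from the start of Zfp281, a zinc finger regulator of pluripotency exit, and was listed in 6 of the 8 knockdown lists. The site at chr15:65896491-65897017 inside Oc90, a gene of the inner ear otoconia, was in 0 of 8. Among sites shared with day 3, a site of 552 bp lay 357 bp from the start of Fam26f, a calcium homeostasis modulator family gene (chr10:34127340-34127891), and was in 5 knockdown lists. A 534 bp site stood 709 bp from the start of Cdo1, which encodes cysteine dioxygenase, on chromosome 18, and was in 5.

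Knockdown cells gave lists that the rule did not use, and they held a minority of the transient sites on each day, with shYthdf2 at day 7 the highest. The shYthdf2 lists of days 1, 3, 5 and 7 overlapped 25.1%, 17.4%, 26.5% and 46.8% of the transient sites. The shYthdf3 lists of the same days overlapped 26.8%, 20.2%, 19.9% and 27.1%. Of the other day 5 sites, each knockdown list overlapped between 68.4% (shYthdf3 day 5) and 90.0% (shYthdf2 day 7). In each of the 8 lists the share was lower for transient sites than for the others. By rule each of the others was also in the shLuc day 1 or day 7 list, and no transient site was. The rule itself therefore favours this difference, and the intervals, which cover counting error only, do not test it.

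Day 5 did not stand out in the knockdown arms. The 2 day 5 lists overlapped 23.2% of transient sites on average, against 27.2% in the 6 lists of the other days, a difference of -4.03 percentage points (two-sided exact permutation p = 0.714 over 28 arrangements, the smallest possible being 0.0714, so that this design cannot reach 0.05). Without the shYthdf2 day 7 list, a comparison added after the data were seen, the difference was -0.12 points (exact permutation p = 0.952). Divided by the share of the other day 5 sites in the same list, the mean was 0.31 for the day 5 lists and 0.338 for the rest (exact permutation p = 0.929). At day 5 itself, 1013 transient sites (9.55%) were in both knockdown lists, 2895 (27.3%) in 1 of them and 6698 (63.2%) in neither.

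Most transient sites were open on day 1 or day 7 in some knockdown culture. A day 1 or day 7 list of a knockdown arm overlapped 7016 of them (66.2%), with 3922 (37.0%) in a day 1 list and 5744 (54.2%) in a day 7 list. In no knockdown list were 2854 sites (26.9%), against 576 (1.17%) of the other day 5 sites, and 2645 were found in the shLuc day 5 list alone of all 12. In all, 121 (1.14%) were in all 8 knockdown lists, against 23201 (47.1%) of the others. The rule itself favours these differences from the others too. The 38 sites (0.358%) in both day 5 knockdown lists and in no day 1 or day 7 knockdown list had a median width of 167.5 bp. The widest with a named near gene were 367 bp near Mir147 (chr2:122666164-122666530), 307 bp within Rin2, which encodes a Rab5 regulator (chr2:145794551-145794857), and 200 bp near Apol6 (chr15:77059551-77059750), an apolipoprotein L gene.

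**Figure D2:**
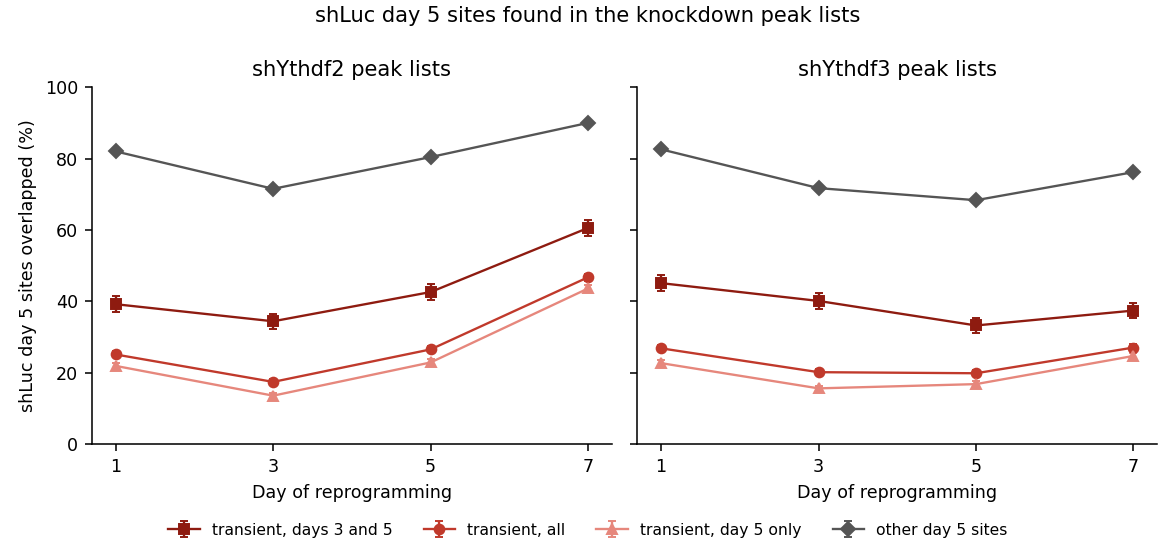
Share of shLuc day 5 sites (percent, y axis) overlapped by 1 bp or more by each knockdown peak list, by day (x axis), in shYthdf2 (left) and shYthdf3 (right); bars are exact 95% binomial intervals and cover counting error only. Transient sites stay between 17.4% and 46.8%, and the other day 5 sites between 68.4% and 90.0%.

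Sites shared with shLuc day 3 were found more often in the knockdown lists. They were chosen by presence in a second shLuc list, and this choice itself favours presence in further lists. Knockdown lists overlapped 33.2% to 60.6% of the 1964 sites of days 3 and 5, against 13.6% to 43.6% of the 8642 day 5 only sites. The sites of days 3 and 5 had a median width of 189 bp, against 161 bp for day 5 only. In no knockdown list were 10.6% of the sites of days 3 and 5 and 30.6% of the day 5 only sites. These shares moved with width as well: 30.6% of transient sites under 150 bp and 11.9% of those of 400 bp or more were in no knockdown list, and the part of width in the contrast was not tested.

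The same rule run within each knockdown arm gave smaller sets. It found 3237 of 55577 day 5 peaks in shYthdf2 (5.82%) and 3927 of 43725 in shYthdf3 (8.98%), against 17.7% in shLuc. Of the shLuc sites, 481 (4.54%) overlapped a site of the shYthdf2 set, which is 14.9% of that set, and 555 (5.23%) one of the shYthdf3 set, which is 14.2% of that. Sites meeting the rule in all 3 arms numbered 40. The lists differed in length, from 59861 peaks in shLuc at day 5 to 55577 in shYthdf2 and 43725 in shYthdf3, and the day 7 lists held 51694, 75558 and 52389 peaks in the same order. With 1 library each, the arm and the library cannot be told apart.

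TEAD2 was rare at transient sites. A day 1 TEAD2 peak lay on 63 of them, 0.594% (0.457 to 0.759), against 6012, or 12.2% (11.9 to 12.5), of the other day 5 sites. It was 1.14% (0.949 to 1.37) at sites of days 5 and 7, 5.44% at sites of days 1 and 5 and 18% at sites of all 3 days. The TEAD2 library is of day 1, when by rule no transient site was listed. The difference from the pooled others, which include sites listed at day 1, was present at each width. It was 0.745% (0.503 to 1.06) of transient sites against 3.30% (2.87 to 3.78) of others under 150 bp. At 400 bp or more it was 0.952% (0.116 to 3.40) against 26.4% (25.7 to 27.1). Sites of days 5 and 7 stood closer, at 1.01% (0.639 to 1.51) under 150 bp and 1.69% (0.93 to 2.83) at 400 bp or more. Both intervals overlapped those of transient sites. The intervals were apart only from 150 to under 200 bp, at 0.396% (0.211 to 0.676) of transient sites against 1.196% (0.82 to 1.68). In knockdown lists of day 1 were 51 of the 63 sites with a TEAD2 peak, against 3922 of all 10606.

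**Figure D3:**
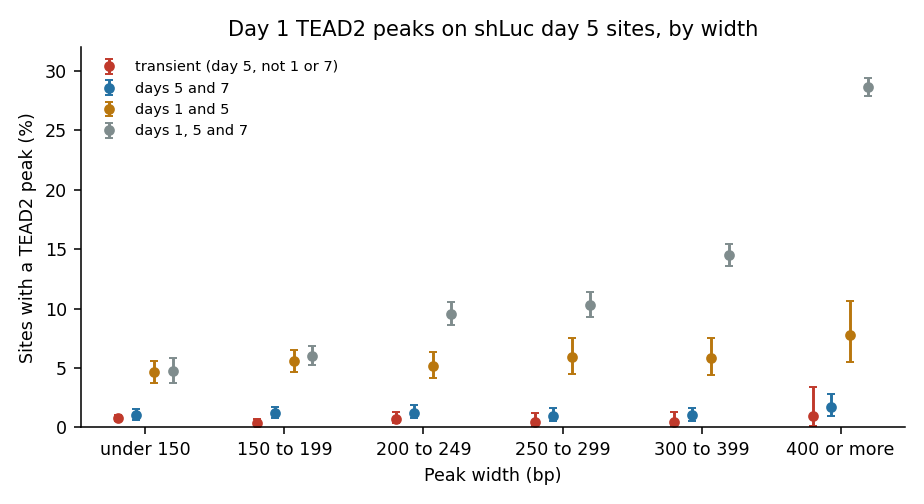
Share of shLuc day 5 sites with a day 1 TEAD2 peak (percent, y axis) by peak width (bp, x axis) for transient sites and the 3 other classes; bars are exact 95% binomial intervals. Transient sites stay under 1% in every width class, and sites of all 3 days reach 28.7% at 400 bp or more.

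The widest transient sites with TEAD2 and a named near gene were 406 bp at chr15:102257051-102257456, 269 bp from the start of Rarg, which encodes retinoic acid receptor gamma, and 397 bp inside Sulf1, an extracellular sulfatase (chr1:12718228-12718624). Another, of 309 bp, covered the promoter window of Htr2a, a serotonin receptor (chr14:74640977-74641285). Of 24 YAP-TEAD and Hippo genes, 5 were near genes of transient sites, led by Ctgf, a matricellular growth factor also called Ccn2, and Tead1 with 4 sites each.

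To ask whether genes close to these sites changed in RNA, each site was given the gene with the nearest start within 50 kb. This named 6127 near genes, of which 4920 had 1 site, 975 had 2 and 232 had 3 or more. They come from 35702 genes with a placed start and an expression row. That share is the background for the gene lists, and no list was tested against it. After the filter on low values (at least 1 TPM in 2 libraries), 3916 of the 6127 were tested, and no count below covers the rest. Tests were made with limma on log2(TPM + 1) over all genes, and a gene was called at a Benjamini-Hochberg adjusted p under 0.05. Unless a replicate block is named, the pairing of same-numbered libraries was not used, and with it more genes were called. The 2 libraries of a group may be technical repeats, so p-values measure only the spread between them. RNA was not used in choosing the sites.

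Among called near genes more rose than fell between day 1 and day 5, as among all called genes (599 higher and 310 lower). Of the 3916, 284 were called (7.25%; 197 higher and 87 lower at day 5), where 4.27% of all genes tested were called, 2.81% higher and 1.46% lower. The median log2 change of the 3916 was 0.03, against 0.00 for all genes, and 52.1% of them had a positive change, against 50.3%. Near genes of sites of days 5 and 7 were called at 7.35%, those of days 1 and 5 at 6.40% and those of all 3 days at 5.00%, so that a share above the background was common to all classes. Leaving out any 1 of the 4 shLuc libraries lowered the count to between 147 and 183. Among the 177 tested genes with 3 or more transient sites, 20 were called (11.3%), 17 of them higher. With 3 or more sites of days 5 and 7 the share was 13.4%, of days 1 and 5 11.2% and of all 3 days 8.52%.

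Genes whose promoter lay under a transient site were called in a higher share. The 351 promoter sites touched windows of 365 genes, of which 293 matched an expression row and 203 were tested. Of these, 33 (16.3%) were called between day 5 and day 1, 25 higher (12.3%) and 8 lower (3.94%). Promoter sites of days 5 and 7 had 50 of 402 genes higher (12.4%) and none lower, promoter sites of days 1 and 5 had 3 of 199 higher (1.51%) and 11 lower (5.53%), and those of all 3 days had 215 of 9260 higher (2.32%) and 157 lower (1.70%). No test of these lists against each other was made. Leaving out 1 library gave 23 to 26 called promoter genes.

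The same genes were tested at day 5 against the mean of days 1 and 7, a test that does not require a difference from each of the 2 days. Of 3916 near genes, 60 (1.53%) differed at day 5 from the mean of days 1 and 7, 56 higher and 4 lower, where 0.976% of all genes did, 0.85% higher and 0.127% lower. The 4 lower genes were Col1a2, Tpm2, a tropomyosin, Basp1 and P4ha2, a collagen prolyl hydroxylase. Of these, P4ha2 was at 9.30 and 8.21 TPM at day 5, below each library of day 1 (27.9 and 33.5 TPM) and day 7 (31.1 and 25.1 TPM). Col1a2, at 230 and 195 TPM, was below day 1 and above both day 7 libraries (170 and 164 TPM), and the day 5 libraries of Tpm2 and Basp1 overlapped those of day 7. With replicate number as a block, 114 were called, 95 higher. Without shLuc day 5 replicate 1 there were 30. Of the 56, 48 (85.7%) had both day 5 libraries above each library of days 1 and 7, against 142 of the 181 called higher among all genes (78.5%). Of the other 8, 7 overlapped with day 7, and Ptn, the growth factor pleiotrophin, was at 304 and 229 TPM at day 5, below both day 7 libraries (560 and 413 TPM) and above day 1 (11.1 and 17.1 TPM). Of 203 promoter genes, 15 were higher (7.39%) and 1, Tpm2, was lower, and promoter genes of sites of days 5 and 7 were higher in 22 of 402 cases (5.47%). Leaving out either day 5 library left 8 promoter genes, all higher.

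**Figure D4:**
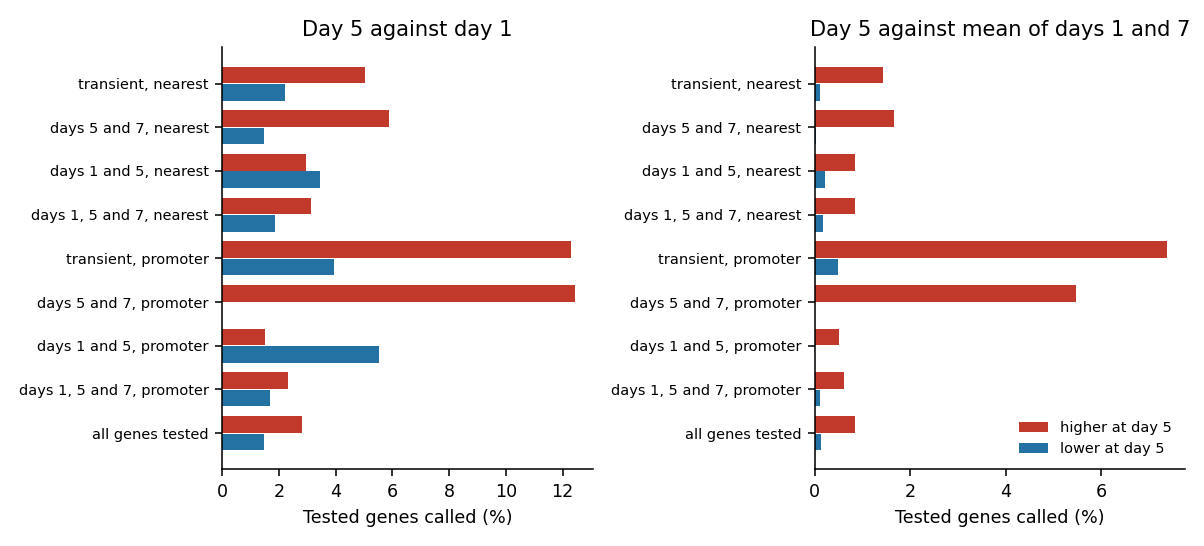
Share of tested genes called higher or lower at day 5 (percent, x axis; limma, adjusted p under 0.05) against day 1 (left) and against the mean of days 1 and 7 (right), for the genes nearest to each class of site and for genes whose promoter window it covers, with all genes tested last. Promoter genes of transient sites stand at 12.3% and 7.39% higher, against 2.81% and 0.85% of all genes.

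Interferon-inducible genes led the list. Gbp3 had 3 transient sites, 1 of them on its promoter, and stood at 410 and 304 TPM at day 5, against 1.99 and 2.06 TPM at day 1 and 121 and 83.3 TPM at day 7. It rose over day 1 by 6.87 ± 0.37 (log2 of TPM + 1, SE; adjusted p = 1.3e-08, limma) and over the mean of both days by 4.34 ± 0.32 (adjusted p = 3.4e-06, limma). Both day 5 libraries were above all others of the control arm at days 1, 3 and 7.

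Tgtp1 was at 820 and 648 TPM at day 5, against 3.22 and 0.76 TPM at day 1 and 272 and 206 TPM at day 7. Tgtp2, listed at 0 in both day 1 libraries, was at 623 and 390 TPM at day 5 and 213 and 146 TPM at day 7. The 2 genes are near copies and reads may have been split between them, so their separate levels are uncertain.

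Psmb10 was at 279 and 216 TPM at day 5, against 17.1 and 21.4 TPM at day 1 and 58.8 and 111 TPM at day 7, a rise over day 1 of 3.62 ± 0.42 (adjusted p = 4.7e-05, limma). Epsti1, an interferon-induced gene of stromal and epithelial cells, was at 61.4 and 32.9 TPM at day 5, against 0.41 and 0 TPM at day 1. Mndal, a member of the Ifi200 family of DNA sensors whose members share sequence, was at 95.5 and 71.1 TPM at day 5, against 3.23 and 3.86 TPM at day 1. Ifitm3, a membrane protein that blocks virus entry, was at 2064 and 2321 TPM at day 5, against 402 and 417 TPM at day 1 and 1469 and 1644 TPM at day 7. In all of these the day 5 libraries lay above the day 1 libraries with no overlap.

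Interferon-stimulated genes without a site rose as well. Of 30 interferon-stimulated genes in a list, 10 were near genes (Ifit1, Ifit3, Ifi44, Mx1, Mx2, Rsad2, Ddx58, Gbp3, Igtp and Irgm1), and all 10 rose between day 1 and day 5, as did 19 of the 20 with no transient site. The median log2 change was 4.81 with a site and 4.46 without. Over the mean of days 1 and 7, 9 of 10 and 19 of 20 rose. Igtp, an immunity-related GTPase with a site 5955 bp from its start, stood at 737 and 543 TPM at day 5, against 1.58 and 0 TPM at day 1 and 268 and 192 TPM at day 7, and its site was in 0 knockdown lists. Of 15 macrophage genes in a list, 14 were found, and their summed level was 86.8 and 88.6 TPM at day 5, against 51.2 and 102 TPM at day 1 and 40.6 and 58.9 TPM at day 7. Of the 13 tested, 1 rose between day 1 and day 5: Mpeg1, a pore-forming protein of phagocytes with no transient site, was at 60.5 and 33.9 TPM at day 5, against 0.17 and 1.21 TPM at day 1 and 14.3 and 8.30 TPM at day 7. Of the 3 with a site, C1qa, a complement subunit, was at 0.83 and 4.08 TPM at day 5, Csf1r at 0.29 and 0 TPM and Ptprc at 0.18 and 0.44 TPM, and 0 were called with limma (1 under an unadjusted p of 0.05). Adgre1, Tyrobp, Fcer1g, Spi1 and Cx3cr1 of the list were at 0 TPM in both day 5 libraries. Others were not: Laptm5 was at 18.5 and 28.4 TPM at day 5, against 21.7 and 27.5 TPM at day 1. Cd68 was at 4.69 and 18.6 TPM, against 11.1 and 17.7 TPM, and Lyz2 at 1.30 and 2.42 TPM, against 9.54 and 22.7 TPM. The part of macrophages in the interferon result was not tested.

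Other promoter genes, outside the interferon-stimulated list, rose as well, and whether their rise depended on that response was not tested. Srgn was at 187 and 379 TPM at day 5, against 2.35 and 2.10 TPM at day 1 and 172 and 259 TPM at day 7, so its day 5 and day 7 libraries overlapped. Trh was at 749 and 1574 TPM at day 5, against 3.39 and 11.9 TPM at day 1 and 581 and 672 TPM at day 7. Kcnip4, a potassium channel-interacting protein, was at 33.0 and 17.6 TPM at day 5, against 0.73 and 0.53 TPM at day 1. Olfml1, an olfactomedin-like gene, was at 0 TPM in each library of day 1, while its day 5 values were 9.50 and 8.53 TPM. Cacna2d2, a calcium channel subunit, was at 36.3 and 57.4 TPM at day 5, against 1.37 and 2.62 TPM at day 1.

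Ppfibp2, which encodes a liprin, had 5 transient sites within 50 kb, 1 on a promoter window. It stood at 22.0 and 24.3 TPM at day 5, against 2.52 and 0.64 TPM at day 1 and 9.12 and 10.9 TPM at day 7. It rose over day 1 by 3.33 ± 0.36 (adjusted p = 2.7e-05, limma) and over the mean of both days by 2.23 ± 0.31 (adjusted p = 0.00097, limma). One of its sites (chr7:107675375-107675632) was in all 8 knockdown lists. It was the single called gene among the 8 with the most sites.

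**Figure D5:**
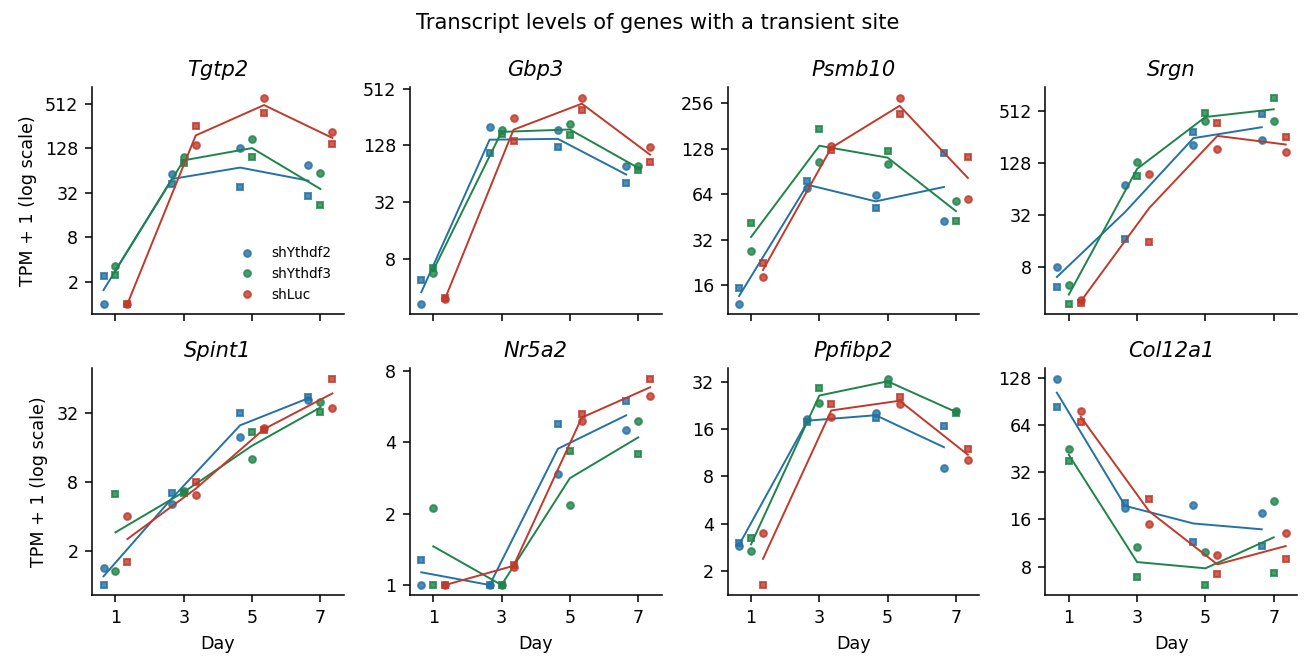
TPM + 1 (y axis, log scale) by day (x axis) in the 2 libraries (circles and squares) of shYthdf2, shYthdf3 and shLuc for 8 genes with a transient site; lines join the means of the log values. Gbp3, Tgtp2 and Psmb10 in shLuc are highest at day 5, Spint1 and Nr5a2 highest at day 7, and Col12a1 highest at day 1.

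The 7 sites around Fam49a, which encodes a regulator of Rac1 signalling, were the most at any gene and lay on chromosome 12 between 12243221 and 12302226, 14936 to 39959 bp from its start. Fam49a was at 30.2 and 16.2 TPM at day 5, against 11.7 and 5.67 TPM at day 1, and was not called (1.33 ± 0.62, adjusted p = 0.35, limma). Foxp1, a forkhead repressor with 5 sites, was at 78.4 and 94.4 TPM at day 5, against 65.2 and 84.8 TPM at day 1. Arhgap10, Nsmce2, Ppp2r5e, Trak1 and the gene model Gm13835, with 5 sites each, were not called between day 5 and day 1 either.

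Some pluripotency genes with sites rose between day 1 and day 5. Of 36 pluripotency genes, 7 were near genes and 4 of the 7 tested rose at day 5 over day 1, as did 6 of the 27 tested without a site. Zfp42, the ES cell marker also called Rex1, had 2 sites and was at 10.1 and 5.61 TPM at day 5, against 0 TPM in each library of day 1, with 12.1 and 11.6 TPM at day 7. Nr5a2 was at 3.91 and 4.27 TPM at day 5, against 0 TPM in each library of day 1, with 5.28 and 6.42 TPM at day 7. By limma 0 of the 7 passed at day 5 against the mean of days 1 and 7, with 4 under an unadjusted p of 0.05.

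Of 30 epithelial genes, 8 were near genes and 3 of the 7 tested rose at day 5 over day 1, as did 5 of the 22 tested without a site. Epcam, the epithelial adhesion molecule, was at 100.4 and 63.3 TPM at day 5, against 1.51 and 5.46 TPM at day 1 (4.33 ± 0.47, adjusted p = 2.7e-05, limma). Krt8, a simple epithelial keratin with 2 sites, was at 67.5 and 65.9 TPM at day 5, against 4.28 and 1.25 TPM at day 1. Spint1 was at 22.7 and 21.9 TPM at day 5, against 3.03 and 0.59 TPM at day 1 and 34.5 and 63.5 TPM at day 7. None of these 3 was called at day 5 against the mean of days 1 and 7, where 0 of 7 near genes of the list passed with limma and 2 had an unadjusted p under 0.05.

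Some genes of the fibroblast state near transient sites fell. Of 30 matrix and collagen genes, 10 were near genes and 5 of them fell at day 5 against day 1, as did 10 of the 20 without a site. Col12a1, a fibril-associated collagen with 3 sites, was at 8.58 and 6.18 TPM at day 5, against 77.0 and 65.3 TPM at day 1 (a log2 change of -3.12 ± 0.47, adjusted p = 0.00063, limma). Lox, which cross-links collagen, was at 25.0 and 8.48 TPM at day 5, against 231 and 173 TPM at day 1. Col1a2, a chain of type I collagen, was at 230 and 195 TPM at day 5, against 956 and 1152 TPM at day 1. Of 29 mesenchymal regulators and surface genes, 13 were near genes, and 2 of the 12 tested fell, as did 3 of the 16 tested without a site. Among them Cdh11, a mesenchymal cadherin, was at 44.8 and 23.4 TPM at day 5, against 103 and 125 TPM at day 1.

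Other named near genes that fell at day 5 were Inhba, a subunit of activin (2.21 and 2.52 TPM at day 5, against 35.1 and 26.6 TPM at day 1), and Fst, the activin antagonist follistatin (74.8 and 45.4 TPM, against 515 and 431 TPM). Of the 5 near genes of the YAP-TEAD and Hippo list, Ctgf was called, at 92.4 and 65.5 TPM at day 5, against 388 and 192 TPM at day 1. Tead1, which encodes another TEAD factor, was at 42.5 and 27.8 TPM at day 5, against 44.7 and 41.7 TPM at day 1. Tead2 had no transient site within 50 kb and was at 194 and 205 TPM at day 5, against 104 and 141 TPM at day 1 (adjusted p = 0.16, limma). Of 20 AP-1 and immediate early genes, 6 were near genes and 0 were called with limma at day 5 against day 1, with 1 under an unadjusted p of 0.05.

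Sites also lay near genes of other lineages. Among all 35702 genes with a placed start and an expression row 6127 were near genes, and no list was tested against that share. Of 15 endothelial genes 8 were near genes, and 6 of the 8 passed the filter on low values. Among the 8, Erg, a transcription factor with 3 sites, and Emcn, endomucin, with 2, were listed at 0 TPM in the 2 shLuc day 5 libraries. Flt1, a VEGF receptor with 2 sites, fell to 1.36 and 1.13 TPM at day 5, against 11.7 and 8.74 TPM at day 1. Neural, muscle, keratinocyte, trophoblast, macrophage and primitive endoderm lists had 7 of 16, 3 of 16, 3 of 17, 3 of 16, 3 of 15 and 2 of 14 genes near a site. In the same order, 7, 2, 2, 2, 3 and 1 of the near genes passed the filter on low values. Of these, Tfap2c, a trophoblast and germ cell factor, rose to 8.35 and 5.97 TPM at day 5, against 1.57 and 0 TPM at day 1, and Mef2c, a muscle and endothelial transcription factor, fell to 2.81 and 2.56 TPM at day 5, against 9.50 and 12.8 TPM at day 1.

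Between day 7 and day 5 few near genes moved. Of 3916, 2 were called (0.0511%), both lower at day 7, where 0.0939% of all genes were called, 0.0704% higher and 0.0235% lower. They were Ifi204, a DNA sensor of the Ifi200 family, at 17.6 and 11.3 TPM at day 7, against 59.1 and 55.1 TPM at day 5, and Otud1, a deubiquitinase, at 14.9 and 14.6 TPM at day 7, against 41.8 and 47.9 TPM at day 5. Neither was called when any 1 of the 4 libraries was left out: 3 of these fits called 0 near genes, and without shLuc day 7 replicate 1 there were 2 others, Hormad2 and Disp3, both higher at day 7. With replicate number as a block there were 9, all lower. Of 203 promoter genes limma called 0, with 26 under an unadjusted p of 0.05, where 923 of all 21303 genes tested were.

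Knockdown changed few near genes at day 5. In shYthdf2, 4 of 3916 were called (0.102%), where 0.178% of all genes were, 0.0939% higher and 0.0845% lower. Spon2, a secreted matrix protein, was at 21.1 and 25.0 TPM in shYthdf2, against 0.91 and 2.50 TPM in shLuc (3.21 ± 0.40, adjusted p = 0.0067, limma). Col1a2 was at 481 and 589 TPM in shYthdf2, against 230 and 195 TPM in shLuc. Ubd, an interferon-inducible ubiquitin-like protein, was at 1.12 and 0 TPM in shYthdf2, against 10.3 and 7.58 TPM in shLuc. Ntrk3, a neurotrophin receptor outside the rule for named genes, was the fourth and was lower (a log2 change of -2.11 ± 0.36). With replicate number as a block 35 were called, while leaving out shLuc day 5 replicate 1 or shYthdf2 day 5 replicate 2 left 0 and leaving out shLuc day 5 replicate 2 left 1.

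In shYthdf3, 31 of 3916 were called (0.792%; 22 higher and 9 lower), where 0.638% of all genes were, 0.46% higher and 0.178% lower. A block for replicate number gave 106. Without any 1 of the 4 libraries the count was 2 to 9. Spon2 was at 16.2 and 24.8 TPM in shYthdf3, against 0.91 and 2.50 TPM in shLuc (3.02 ± 0.40, adjusted p = 0.0046, limma). Both knockdown comparisons share the shLuc day 5 libraries. Kng2, a kininogen, was at 70.3 and 43.5 TPM in shYthdf3, against 3.09 and 8.44 TPM in shLuc. Tmem232, a transmembrane protein with 2 sites, was at 10.3 and 9.46 TPM in shYthdf3 and listed at 0 in both shLuc libraries. Igfbp5, an IGF-binding protein, was at 12.5 and 7.14 TPM in shYthdf3, against 65.5 and 50.3 TPM in shLuc. Tap2, the peptide transporter of antigen presentation, was at 43.6 and 47.0 TPM in shYthdf3, against 131 and 106 TPM in shLuc. Igtp was at 157 and 123 TPM in shYthdf3, against 737 and 543 TPM in shLuc (a log2 change of -2.18 ± 0.47, adjusted p = 0.044, limma). The interferon-stimulated list did not fall as a whole with its near genes in shYthdf3. Its 10 near genes had a median log2 change of 0.07, with 1 called lower, Igtp. All 30 genes of the list had a median of -0.13, with 2 called lower. In shYthdf2 the medians were -0.55 for the 10, with 0 called by limma, and -0.58 for the 30, with 2 called lower.

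At promoters, 0 of 203 genes were called in shYthdf2 with limma, with 32 under an unadjusted p of 0.05, a count not set here against that of all genes. In shYthdf3 there were 5 (2.46%, where 0.638% of all genes were called), all higher: Grm2, a glutamate receptor, Myo3a, an unconventional myosin, Tmem63c, Vwc2l and the clone 2210013O21Rik. Grm2 was at 28.9 and 14.4 TPM in shYthdf3, against 0 and 0.58 TPM in shLuc. Leaving out 1 library gave 0 or 1 called promoter genes: Tmem63c was called without shLuc day 5 replicate 1 and without shYthdf3 day 5 replicate 2, and no gene was called in the other 2 fits. At these promoters Gbp3 was at 183 and 121 TPM in shYthdf2 and 213 and 165 TPM in shYthdf3, against 410 and 304 TPM in shLuc, and neither difference passed (adjusted p = 0.30 and 0.39, limma). Psmb10 was at 62.1 and 51.0 TPM in shYthdf2 and 99.8 and 123 TPM in shYthdf3, against 279 and 216 TPM in shLuc (adjusted p = 0.066 and 0.31, limma). The libraries did not overlap in any of these pairs. The sites of both genes were in the shLuc day 5 list. Of the 8 knockdown lists the Gbp3 promoter site was in 5, among them those of shYthdf2 and shYthdf3 at day 5. The Psmb10 site was in 1, that of shYthdf2 at day 5. A link between these lists and the RNA levels was not tested.

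Near genes were also compared between ES cells and MEFs. Of 3350 tested in that fit, 2359 were called (70.4%; 1021 higher and 1338 lower in ES cells), where 62.9% of all genes were, 30% higher and 32.9% lower. Near genes of the other classes were called at 70.8% to 72.0%. Zfp42 was at 745 and 753 TPM in ES cells, against 0.14 and 0.15 TPM in MEFs, and Trh at 498 and 447 TPM in ES cells while listed at 0 in both MEF libraries. Lox was at 1.56 and 0 TPM in ES cells, against 1074 and 1033 TPM in MEFs. Gbp3, at 0 in both ES libraries and 0.82 and 0.39 TPM in MEFs, was thus higher at day 5 than in either end cell type. Ppfibp2, at 3.03 and 1.83 TPM in ES cells and 0 in both MEF libraries, was at 17.9 and 22.2 TPM at day 3 of the control arm.

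Promoter windows under transient sites were of intermediate base composition, close to that of windows under sites of days 5 and 7. Their median GC content was 56.2% with 10 CpG, against 62.7% with 23 CpG for windows under sites of all 3 days and 52.7% with 7 CpG for all 32851 windows. It was 56.0% with 10 CpG under sites of days 5 and 7, and 59.7% with 15 CpG under sites of days 1 and 5. The 388 windows were searched on both strands for 16 motifs, and a match is given by its letters only, with overlapping matches counted for each motif. The TEAD letters GGAATG were in 18% of the windows (14.3 to 22.2), against 14.7% of all windows, and the AP-1 letters TGANTCA in 10.6% (7.69 to 14.1), against 7.81%. The KLF letters GGGNGTG were in 37.6% (32.8 to 42.7), against 29.2%, the octamer ATGCAAAT in 1.29% (0.42 to 2.98), against 1.74%, and the SOX letters CCTTTGT in 7.47% (5.06 to 10.6), against 5.88%. The IRF letters GAAANTGAA were in 8 windows, 2.06% (0.894 to 4.02), against 2.21%. The ETS letters CCGGAAG were in 6.19% (4.00 to 9.06), against 19.2% of windows under sites of all 3 days and 8.86% of all, and the NFY letters GCCAAT in 12.4%, against 20.8% and 14.7%. Windows under sites of days 5 and 7 and of days 1 and 5 stood near the transient ones, at 5.64% and 5.25% for ETS and 14.1% each for NFY. The CTCF motif was in 0.773% and the NRF1 letters GCGCATGCG in 0.258%. Of the motifs given with intervals, only the KLF letters had an interval above the share of all windows, and those of the other 3 classes held them in 37.0% to 37.1%.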

How the data were processed

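ATAC-seq peak lists, a TEAD2 ChIP-seq peak list and RNA-seq values were used as the authors deposited them. Per the submitters' processing notes, which name Bowtie2, SAMtools, MACS2, RSEM, deepTools and the build mm10 without roles or versions, 1 list was given per library; the lists hold coordinates only. The RNA values are TPM, as deposited by the authors, so their depth is unknown. Input libraries and the RNA decay and spike-in tables were not used here.

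Peaks were intersected with bedtools 2.31.1 (at least 1 bp). Shares carry exact (Clopper-Pearson) 95% binomial intervals. A site's near gene was the RefSeq gene with the nearest start within 50 kb that matched an expression row. RNA was tested with limma 3.58.1 in R 4.3.3 on log2(TPM + 1), which understates the change of low genes, with 1 mean per group over 24 time-course libraries (21303 genes) or 18 ES, iPS and MEF libraries (17985 genes). P-values were Benjamini-Hochberg adjusted over all genes, and the steps were tested on simulated data. Tables were handled with Python 3.11.15, pandas 2.3.3 and SciPy 1.17.1.

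The members, gene lists and motifs were chosen with earlier results of these data known. Named sites were the 5 widest of each set with a near gene of a named symbol; named genes were, per comparison, the 6 near genes changed most in each direction (adjusted p under 0.05, libraries not overlapping, 5 TPM or more in the higher group), the 8 with the most sites, list members, Ythdf2, Ythdf3 and Tead2. Promoter genes were added after their values were seen. Same-numbered time-course libraries deviated together (correlations 0.276 to 0.497 over 66 pairs of groups). The main fit did not use this pairing, and replicate number entered as a block only as an alternative. Same-numbered ES, iPS and MEF libraries did not deviate together (-0.126 to 0.07). Libraries numbered 2 had fewer genes at 1 TPM or more (13299 to 14885) than those numbered 1 (14789 to 16443). Alternatives were another pseudocount, no filter, median-ratio scaling, the replicate block, other distances and overlaps, and leaving out each library.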

Additional observations from a re-analysis of the deposited data

Results flagged for a closer look

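The shYthdf2 day 7 list stood apart from the other 7 knockdown lists. It overlapped 46.8% of the transient sites, where the next list had 27.1% and the lowest 17.4%. Among the day 5 only sites it overlapped 43.6%, with the next list at 24.7%, and among the sites of days 3 and 5 it overlapped 60.6%, with the next at 45.1%. In each case the gap to the next list was over the 95% limit of Dixon's test for 8 values, which chance passes in about 1 of 20 groups, and the 3 shares come from 1 library. That list held 75558 peaks, against 43725 to 78260 over all 12 lists. The part of list length in these shares was not tested.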

How the results depend on the processing

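Counting only sites at or above the median day 5 width left 1834. The share in the shYthdf2 day 5 list was then 36.6%, and 25.3% when 50% of the shorter peak had to be covered, 22.9% for day 5 only sites and 42.6% for sites of days 3 and 5. The same shares for shYthdf3 were 29.5%, 18.8%, 16.8% and 33.2%, and the TEAD2 share of sites of days 3 and 5 was 0.866%. The difference between day 5 and the other days, divided by the share of other sites, was 0.00716 for wide sites (exact permutation p = 0.714) and 0.00805 without the shYthdf2 day 7 list (exact permutation p = 0.857), opposite in sign to the -0.03 over all sites and lists.

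With replicate number as a block (the pairing of libraries), near genes called were 9 for day 7 against day 5, 114 for day 5 against the mean of days 1 and 7, 35 for shYthdf2 and 106 for shYthdf3, with 8 promoter genes in shYthdf3; for day 5 against day 1 there were 424 near genes. A pseudocount of 0.1 gave 2 near genes in shYthdf2, and in shYthdf3 20 near and 2 promoter genes. Median-ratio scaling gave 5 near genes for day 7 against day 5 (1 higher, 4 lower) and 9 in shYthdf2, and no filter gave 8 for day 7 against day 5 (5 higher, 3 lower). Within 10 kb there were 179 near genes for day 5 against day 1 and 1182 for ES cells against MEFs.

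Leaving out 1 library gave 147 to 183 near genes for day 5 against day 1, 0 to 2 for day 7 against day 5 (none of them the 2 called with all libraries), 30 to 54 for day 5 against the mean of days 1 and 7, 0 to 5 in shYthdf2 and 2 to 9 in shYthdf3; promoter genes numbered 8 to 13 against the mean of days 1 and 7 and 0 to 1 in shYthdf3. These fits have fewer samples; the cause of the other changes was not tested. For single named genes, 132 calls were lost and 338 held when 1 library was left out, and none of these changed sign. With 1 ATAC-seq library per arm and day, and no peak heights, a site missing from a list cannot be told apart from one just under the caller's threshold.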
